A study of Saccharomyces cerevisiae with 3 samples.

Results

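The proteasome is the large protease that degrades ubiquitin-tagged proteins in the cytosol and nucleus, and its transcripts were followed here through a heat shock in budding yeast, Saccharomyces cerevisiae, with and without the linker histone gene HHO1. The 33 genes described were taken by name among the gene probes of the arrays: 31 structural subunits, the assembly factor UMP1 and the activator gene RPN4. All 33 were found among 6256 genes, on 56 of 10263 gene spots. Of these, 23 had 2 spots and 10 had 1 spot, RPN4 among the latter.

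Messenger RNA was compared on 3 two-colour arrays, 1 for each sample. The samples were a strain deleted for HHO1 grown at 25 °C, the same strain heated rapidly to 37 °C for 15 min, and the wild type heated in the same way. On every array the second channel held RNA of wild-type cells grown at 25 °C, the only control; all cultures were in YPAD medium. The deletion strain was labelled with Cy3 against a Cy5 reference, and the heated wild type with Cy5 against a Cy3 reference. The sources used here do not give the strain background or the number of independent deletion clones. The protocol fields also speak of growth at 37 °C, while the treatment fields give the rapid heating.

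The core particle is a barrel of rings made of alpha and beta subunits, with the proteolytic sites inside the beta rings. A regulatory particle caps it: the base holds a ring of ATPases that unfold substrates, and the lid removes ubiquitin. Rpn4 is a short-lived transcription factor that activates most proteasome genes and is itself degraded by the proteasome, so that its level rises when proteasome capacity falls short. Its gene is also known as a target of heat shock factor. No promoter, probe or protein sequences were used here.

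Ratios are log2 of sample over wild type at 25 °C, and the SD after a value is between the spots of a gene. A gene is said to have risen or fallen where its mean ratio was at least 0.58 in size, about 1.5-fold, with each spot at 0.29 or more that way. A stricter 2-fold rule asked for a mean of 1 with each spot at 0.58. With 1 array per group there is no replicate check and no test. All comparisons share the reference RNA, and several share an array, so they are not independent of each other. These are ratios between RNA pools, so fewer cells of a type and less RNA per cell cannot be told apart.

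The deleted gene itself, HHO1, was at -4.34 ± 0.16 (SD, 2 spots) in unheated deletion cells and at -4.26 ± 0.03 in heated ones, against -0.34 ± 0.02 in the heated wild type. Between 90.0% and 95.1% of gene spots were well above background in each channel. All 56 proteasome spots were well above background in both channels of all 3 arrays, and none carried an outlier flag. The faintest proteasome signal in Cy3, that of UMP1 in unheated deletion cells, was 968 units of brightness above local background, where the 89 negative control spots had a median of 161.2. The arrays of the deletion strain shared a slide and a scan that the wild type did not, and had the opposite dye orientation; in the heated samples none of these can be told apart from the strain. The reference RNA itself gave a scale for the error of a single channel between arrays. Between both deletion arrays, the Cy5 reference differed with an SD of 0.12 over the 33 members, from -0.20 for PUP2 to 0.33 for PRE8, and with an SD of 0.22 over 5872 genes.

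**Figure D1:**
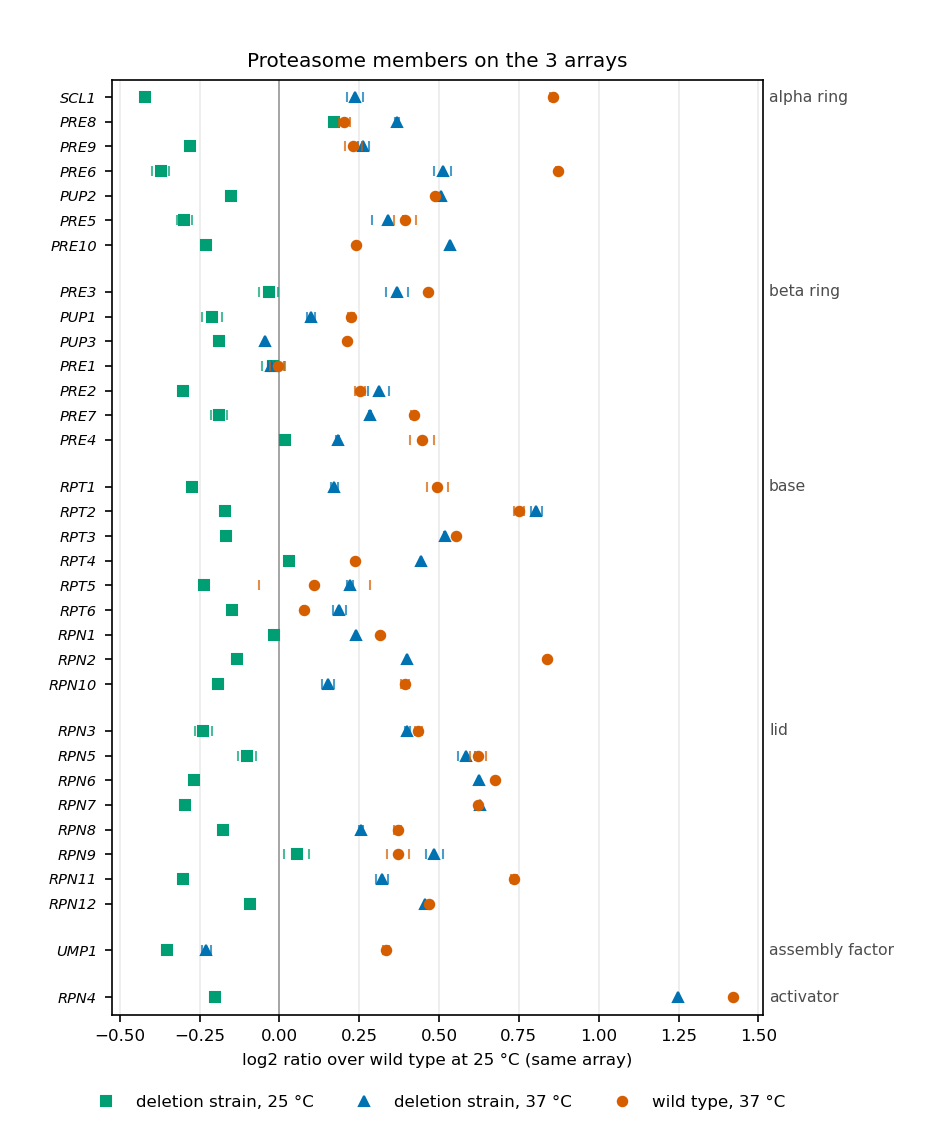
Log2 ratio over wild type at 25 °C for each of the 33 members, grouped by role. Squares are gene means of unheated deletion cells, triangles those of heated deletion cells and circles those of heated wild-type cells, and vertical ticks are single spots. RPN4 lies farthest to the right in both heated samples, at 1.42 and 1.25, while most squares lie left of 0.

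In heated wild-type cells RPN4 was the highest member, and most subunits lay above their 25 °C level by less than 1.5-fold. RPN4 stood at 1.42, a 2.68-fold rise, at rank 395 from the top of 5974 measured genes. Its brightness above local background was 6867 in the heated Cy5 channel and 1147 in the Cy3 reference before normalisation, while on the array of the heated deletion strain it was 2818 in Cy3 and 2591 in the Cy5 reference. The dyes differ in brightness, so these signals become ratios only after normalisation within the array.

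Of the 33 members 32 lay above 0 in the wild type, and their median was 0.42, where the median of all genes was 0.00 and 2988 of 5974 genes lay above 0. By the 1.5-fold rule 9 of 33 members rose and none fell. Over all genes 21.6% rose and 24.5% fell, so the share of members that rose was near that of the genome while none of them fell. By the 2-fold rule 1 member, RPN4, rose, against 11.6% of all genes. The members varied less than genes in general, with an SD of 0.28 over members and 1.29 over all genes. In the order of the members, 24 of 32 gaps between neighbours were no larger than the spot SD of 0.06. That SD was raised by RPT5, with spots at -0.07 and 0.28, and it leaves out the error between arrays. The order of neighbours is therefore not settled here. The largest gap, 0.55, lay between RPN4 and the next member, PRE6.

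The lid was the part of the complex with the highest median. Its 8 genes among the members lay between 0.37 and 0.74, with a median of 0.55. Against 21.6% of all genes, 4 of them rose. RPN11, the deubiquitylase that cleaves ubiquitin chains off substrates, was at 0.74 ± 0.01 (SD, 2 spots), RPN6 at 0.67 on 1 spot, RPN5 at 0.62 ± 0.04 and RPN7 at 0.62 on 1 spot; the last 3 are scaffold subunits. The lowest were RPN8, the partner of the deubiquitylase, and the scaffold subunit RPN9, both at 0.37. RPN12 was at 0.47 and RPN3 at 0.44.

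The base ranged more widely, from 0.08 to 0.84 around a median of 0.39. Against 21.6% of all genes, 2 of its 9 genes rose. These were RPN2, a large scaffold subunit, at 0.84 on 1 spot and the ATPase gene RPT2 at 0.75 ± 0.02. The other ATPase genes followed with RPT3 at 0.55, RPT1 at 0.49, RPT4 at 0.24, RPT5 at 0.11 and RPT6 at 0.08. The ATPases form 1 ring in equal numbers, and their transcript ratios spread from 0.08 to 0.75. RPT5 was the member whose spots disagreed most, with an SD of 0.25. The ubiquitin receptor gene RPN10 was at 0.39 and the scaffold gene RPN1 at 0.32.

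Within the array the core particle lay lowest, with a median of 0.32 over its 14 genes. Its alpha ring alone, with a median of 0.39, was level with the base. Within the alpha ring 2 genes stood apart, PRE6 at 0.87 ± 0.01 and SCL1 at 0.86 ± 0.01, and both rose; the other alpha genes lay between PRE8 at 0.20 and PUP2 at 0.49, with PRE5 at 0.39, PRE10 at 0.24 and PRE9, the only alpha subunit that yeast can lose, at 0.23. None of the 7 beta genes rose, where 21.6% of all genes did, and their median was 0.25. The catalytic subunit genes were at 0.46 for PRE3, 0.25 for PRE2 and 0.22 for PUP1. Of the remaining beta genes PRE4 was at 0.45, PRE7 at 0.42, PUP3 at 0.21 and PRE1 at -0.01 ± 0.03, the only member below 0. UMP1, whose product helps the core particle mature and is then degraded by it, was at 0.33 ± 0.01.

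Some of the wild-type values depended on the scaling and on the reference channel used. With each array centred on its median in place of the intensity-dependent loess, the member median was 0.82 against 0.06 for all genes, and 30 members rose, where 1733 of 5974 genes did. Proteasome transcripts are bright, with a median log2 brightness of 12.19 against 9.43 for all genes; the part of brightness in this shift was not tested. In the same-dye comparison, which sets the heated Cy5 channel against the Cy5 reference of the deletion arrays, the median was 0.40 but 4 members rose, against 22.6% of all genes; of these RPN4 at 1.33, RPN2 at 0.60 and RPN5 at 0.58 also rose within the array. There SCL1 was at 0.41, PRE6 at 0.51 and RPN11 at 0.37. The base had a median of 0.30 in the same-dye comparison and lay below the core particle, so the order of these parts changed.

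**Figure D2:**
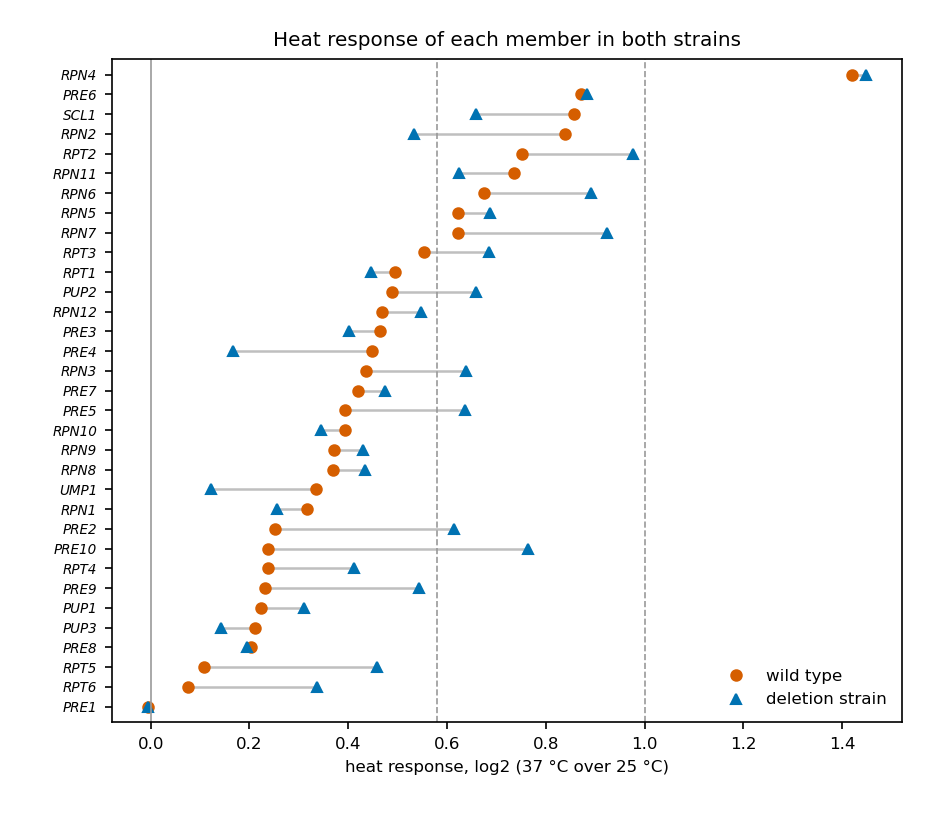
Heat response of each member as log2 of 37 °C over 25 °C, in the wild type (circles) and the deletion strain (triangles), ordered by the wild type. Dashed lines mark the thresholds of 0.58 and 1. RPN4 lies at 1.42 and 1.45 at the top, PRE1 at -0.01 in both strains at the bottom, and the widest gap between strains is that of PRE10.

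The deletion strain had the same leading member. Its heat response is the array at 37 °C minus the array at 25 °C, each over the reference. RPN4 was at -0.20 at 25 °C and at 1.25 at 37 °C over the reference, a response of 1.45, 2.73-fold, at rank 392 of 5918 genes. That is close to the wild-type response of 1.42. The median of the members was 0.53, against 0.00 for all genes; 32 of 33 lay above 0 and 14 rose, where 21.4% of all genes rose and 24.5% fell. No member fell. By the 2-fold rule 1 member, again RPN4, rose, against 11.5% of genes.

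Directly over the wild-type reference the heated deletion strain had a member median of 0.34, with 30 of 33 above 0. There 5 members rose, where 20.6% of all genes rose and 24.4% fell; RPN4 alone passed the 2-fold rule, as 11.5% of genes did. The other 4 were RPT2 at 0.80 ± 0.02, RPN7 at 0.63, RPN6 at 0.62 and RPN5 at 0.59 ± 0.04. The response within the strain exceeds these values by what it subtracts, the 25 °C array, on which most members lay below 0. SCL1, for example, was at -0.42 in unheated and 0.24 in heated deletion cells, where the heated wild type had 0.86. UMP1 was the lowest member in heated deletion cells, at -0.23, against -0.35 in unheated ones and 0.33 in the heated wild type. RPT2, in contrast, was at -0.17 before and 0.80 after heating in the deletion strain, next to 0.75 in the wild type.

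By role the deletion strain again had the beta ring lowest, with a median response of 0.31, and the alpha ring and lid highest, with 0.66 and 0.63. The base lay between them at 0.45. Over all genes 21.4% rose. In the lid 5 of 8 genes rose, led by RPN7 at 0.92 and RPN6 at 0.89, with RPN5 at 0.69 ± 0.00 and RPN3 at 0.64 ± 0.02. In the base the ATPase genes RPT2, at 0.98 ± 0.00, and RPT3, at 0.69 ± 0.00, rose, and the lowest values were those of RPN1 at 0.26 and RPT6 at 0.34. In the lid the lowest were RPN8 and RPN9, both at 0.43. In the alpha ring 5 of 7 genes rose, among them PRE6 at 0.88 ± 0.00, PRE10 at 0.76 and SCL1 at 0.66 ± 0.02, while PRE8 was at 0.20 ± 0.01. In the beta ring PRE2, the gene of the chymotrypsin-like subunit, rose at 0.61 ± 0.04. The others of that ring followed with PRE7 at 0.47, PRE3 at 0.40, PUP1 at 0.31, PRE4 at 0.17, PUP3 at 0.14 and PRE1 at -0.01. UMP1 was at 0.12 ± 0.01.

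Of the 9 members that rose in the wild type, 8 also rose in the deletion strain: RPN4, SCL1, PRE6, RPT2, RPN5, RPN6, RPN7 and RPN11. The ninth, RPN2, was at 0.53 in the deletion strain, just under the threshold. How many of all genes risen in the wild type also rose in the deletion strain was not counted. Over all genes the difference between both responses had an SD of 0.28, against 1.29 for the wild-type response. In the same-dye comparison RPN4 and RPN5 were the only members that rose in both strains. With median centring the deletion strain's median response was 0.30, with all genes at -0.19, and 4 members rose, RPN4, RPT2, RPN7 and PRE6, where 886 of 5918 genes did. In the authors' deposited table the median was 0.41 and 9 members rose, against 23.4% of all genes.

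**Figure D3:**
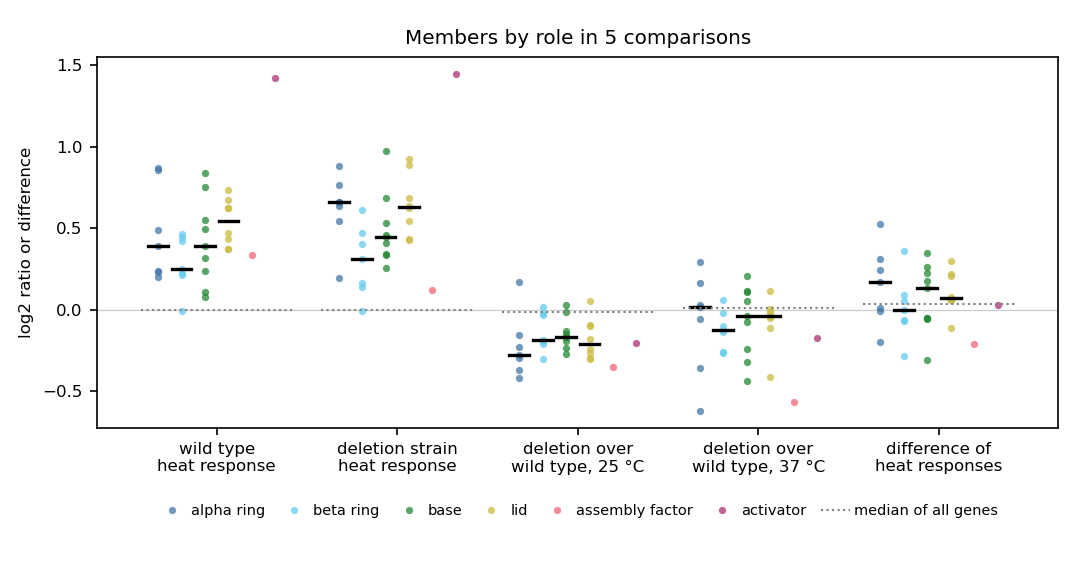
Log2 values of the members by role in 5 comparisons; each point is a gene, short bars are medians of the rings, base and lid, and dotted lines are the medians of all genes. RPN4 stands apart in both heat responses, at 1.42 and 1.45, and within the spread of the subunits in the 3 comparisons between strains.

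The difference between both heat responses, deletion strain minus wild type, was small for the members. Its median was 0.06 against 0.04 for all genes, and 21 of 33 members lay above 0, where 56.1% of all genes did. No member was higher or lower by the 1.5-fold rule, which 2.35% of genes passed upward and 2.35% downward; in the same-dye comparison RPT5 passed it at 0.61. RPN4 was at 0.03. The highest members were PRE10 at 0.52 on 1 spot, PRE2 at 0.36 ± 0.06, RPT5 at 0.35 ± 0.27 and PRE9 at 0.31 ± 0.05. The lowest were RPN2 at -0.31 on 1 spot, PRE4 at -0.28 ± 0.05 and UMP1 at -0.21 ± 0.00. The value of RPT5 was no larger than 2 SD of its spots, and that of PRE10 rests on a single spot per array. PRE10 itself was at 0.24 in the heated wild type, 0.53 in the heated deletion strain and -0.23 in unheated deletion cells.

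The comparison of both strains at 37 °C, each over the reference, had a member median of -0.05, with 0.01 for all genes. Of the members 11 lay above 0 and 22 below. By the 1.5-fold rule 1 member fell and none rose; over all genes 3.39% fell and 3.29% rose. The fallen member was SCL1 at -0.62 ± 0.02, followed by UMP1 at -0.56 ± 0.01, RPN2 at -0.44 and RPN11 at -0.41 ± 0.04; the highest were PRE10 at 0.30 and RPT4 at 0.21. RPN4 was at -0.17. These arrays carried opposite dyes, and in the same-dye comparison SCL1 was at 0.25, UMP1 at -0.05, RPN11 at 0.32, RPN2 at -0.05 and RPN4 at 0.00, so the fall of SCL1 turned direction. The sign of 17 of the 33 members differed between both ways of comparing, 14 of them below 0 across dyes and above 0 in the same-dye comparison. There each heated sample is set against the reference channel of the other slide and scan. That crossing enters for both strains, so dye cannot be told apart from slide and scan in these sign changes.

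Median centring placed the members far lower in the comparisons between heated strains. At 37 °C the member median was -0.84, with 31 members fallen, against 34.5% of genes, and all genes at -0.37, and for the difference of responses it was -0.51, with 12 members lower, against 24.9% of genes, and all genes at -0.34. Relative to all genes these are shifts of -0.47 and -0.17. In the same-dye comparison the same medians were 0.06 and 0.22, so the strain difference in heated cells had no single direction under these alternatives.

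Within 1 array, with the deletion strain in Cy3 and the wild type in Cy5, most proteasome transcripts were slightly lower in the deletion strain at 25 °C. The median of the members was -0.19 and that of all genes -0.02; 29 of 33 members lay below 0, against 53.5% of all genes. None rose or fell by the 1.5-fold rule, which 0.384% of genes passed upward and 0.251% downward. All 33 values lay between SCL1 at -0.42 ± 0.02 and PRE8 at 0.17 ± 0.02. By role the alpha ring had a median of -0.28, the lid -0.21, the beta ring -0.19 and the base -0.17, and RPN4 was at -0.20 on 1 spot.

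After SCL1 the lowest members were the alpha gene PRE6 at -0.37 ± 0.04, UMP1 at -0.35 ± 0.01, the catalytic subunit gene PRE2 at -0.30 ± 0.01 and RPN11 at -0.30 ± 0.01. In the base RPT1 was lowest at -0.27, and in the lid RPN7 at -0.30 stood beside RPN11. The 4 members above 0 were PRE8, RPN9 at 0.05 ± 0.06, RPT4 at 0.03 and PRE4 at 0.02 ± 0.00. In the order of the members 25 of 32 gaps between neighbours were no larger than the spot SD of 0.03. The spots of a gene lie on 1 array and share its labelling, so their SD leaves out the error between arrays. The SD of 0.12 for the Cy5 reference over these genes is between arrays that shared dye, slide and scan. It describes a single channel, so it is not the error of a ratio within an array, and it leaves out differences of dye, slide and culture.

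The reference RNA differed between the channels in the same direction for most members. The wild-type reference in Cy3, measured on the wild-type array, was set against the same reference in Cy5 on the deletion arrays so that neither strain nor temperature differed; dye, slide and scan did, and cannot be told apart here. The member median of this difference was -0.08, with an SD of 0.16 over the members and 25 of 33 below 0. The median over all genes was 0.02. SCL1 was at -0.45 there, PRE6 at -0.36, RPN11 at -0.36 and UMP1 at -0.23, while PRE8 was at 0.27 and RPN9 at 0.23.

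With the deletion strain and the wild type both read in Cy3, the median at 25 °C was -0.12 and 25 of 33 members lay below 0. The median of all genes was -0.04. The sign of 12 members differed from that within the array. The alpha ring then had a median of -0.19, the beta ring -0.18 and the lid -0.14, while the base, at -0.04, was level with all genes. SCL1 was then at 0.04, PRE6 at 0.03 and RPN11 at 0.05, PRE8 was at -0.26 and RPN9 at -0.24, and UMP1 at -0.18. PRE2, at -0.33, RPN7, at -0.26, RPN3, at -0.25, and PUP1, at -0.22, stayed within 0.04 of their values within the array. By construction this same-dye value is close to the ratio within the array minus that difference of the reference, so both are not independent. With median centring the median was -0.37, all 33 members lay below 0 and all genes were at -0.02.

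**Figure D4:**
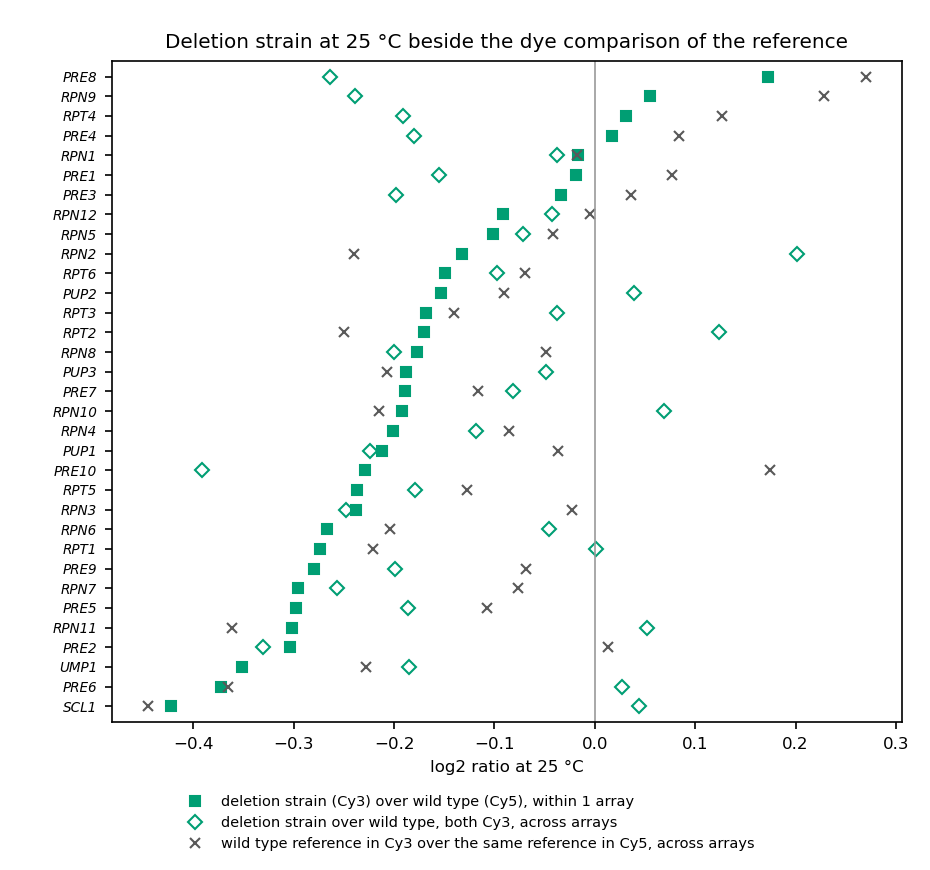
Log2 ratio at 25 °C of each member, ordered by the ratio of deletion strain (Cy3) over wild type (Cy5) within 1 array (filled squares). Open diamonds are the same comparison with both samples in Cy3 on different arrays, and crosses are the wild-type reference in Cy3 over the same RNA in Cy5. SCL1, PRE6 and RPN11 lie below -0.3 within the array and between 0.03 and 0.05 in the same-dye comparison, while PRE2 stays near -0.3 in both.

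Around the proteasome itself, genes of its assembly chaperones and associated proteins spread with an SD of 0.96 in the wild type, where the subunits had 0.23. Of 14 such genes 6 rose and 1 fell in the wild type, with a median of 0.37, where 21.6% of all genes rose and 24.5% fell. TMA17, a chaperone of ATPase ring assembly, had the highest value, 3.12 ± 0.05, 8.71-fold, at rank 92 of 5974 genes. Its response in the deletion strain was 2.83 ± 0.04, 7.11-fold. In the heated wild type its signal was 24040 above background, against 1272 in the reference channel.

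The other chaperone genes of the base were lower and did not move as 1 group. NAS2 was at 1.22 in wild-type and 0.85 in deletion cells on 1 spot whose reference signal was 237.7 in Cy3, RPN14 at 0.94 and 1.27 on 1 spot, and HSM3 at 0.61 ± 0.01 and 0.82 ± 0.02, all of them rises, while NAS6 was at 0.38 and 0.20. Among the chaperone genes of the core particle POC4 fell in both strains, at -1.27 ± 0.03, 2.41-fold lower, and -1.37 ± 0.02. Its partner gene IRC25 was at 0.09 and -0.09, and the other pair, PBA1 and ADD66, at 0.10 and 0.28 in the wild type.

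Of the proteins that bind the finished particle, UBP6, a deubiquitylase, rose in both strains, at 0.73 and 0.70, and so did ECM29 at 0.61 ± 0.02 and 0.71 ± 0.04. The ubiquitin receptor gene RPN13 was at 0.08 and -0.01, and BLM10, which encodes an alternative cap, at -0.24 and -0.16. The small lid subunit gene SEM1, counted in this list and not among the 8 lid genes, was at 0.37 and 0.53. In the deletion strain 6 of these 14 genes rose and 1 fell, where 21.4% of all genes rose and 24.5% fell. HSM3 and ECM29 did not pass the rule in the wild type without background correction, nor NAS2 and UBP6 in the deletion strain with median centring.

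Genes that deliver substrates had higher medians than the subunits, 0.42 and 0.53. Of 7 genes of ubiquitin shuttles and of Cdc48, the ATPase that extracts tagged proteins from complexes, 4 rose in wild-type and 5 in deletion cells, against 21.6% and 21.4% of all genes, with medians of 0.62 and 0.75. DDI1 was at 1.23 ± 0.04 and 1.21 ± 0.00, past the 2-fold rule in both. CDC48 rose at 0.62 ± 0.06 and 0.89 ± 0.00, but in the authors' deposited table it was at 0.47 and 0.48, under the threshold in both strains. It was also under it from the scanner's signals, at 0.45, and without background correction in the wild type, and with median centring, at 0.37, in the deletion strain. Its cofactor genes NPL4, at 0.81 and 0.75, and SHP1, at 0.73 and 0.92, rose; UFD1 was at 0.36 in the wild type and rose at 0.66 in the deletion strain. With median centring NPL4 and UFD1 did not pass the rule in the deletion strain. The shuttle genes RAD23, at 0.05 and 0.09, and DSK2, at 0.29 and 0.39, did not pass the rule.

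All 8 listed genes that act on RPN4 lay above 0 in both strains, where 2988 of 5974 and 2939 of 5918 genes did. Their medians were 0.24 in wild-type and 0.41 in deletion cells, against 0.0005 and -0.0045 for all genes. By the 1.5-fold rule 1 of the 8 rose in each strain, where 21.6% and 21.4% of all genes rose. A count of 1 in 8 is too small to set these shares apart. The risen gene was HSF1, the heat shock factor gene, at 0.74 ± 0.02 in wild-type and 0.61 ± 0.00 in deletion cells. In the latter it did not pass the rule with median centring, at 0.42, or without background correction. The activator genes PDR1, PDR3 and YAP1 were at 0.49, 0.15 and 0.06 in wild-type and at 0.30, 0.14 and 0.45 in deletion cells. The other listed genes, among them those for the turnover of Rpn4, were lower than HSF1. In the wild type the ubiquitin-conjugating enzyme gene RAD6 was at 0.47 and the ligase gene UBR2 at 0.29. MUB1, which encodes a partner of Ubr2, was at 0.20, and UBR1, another ligase gene of the list, at 0.17.

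**Figure D5:**
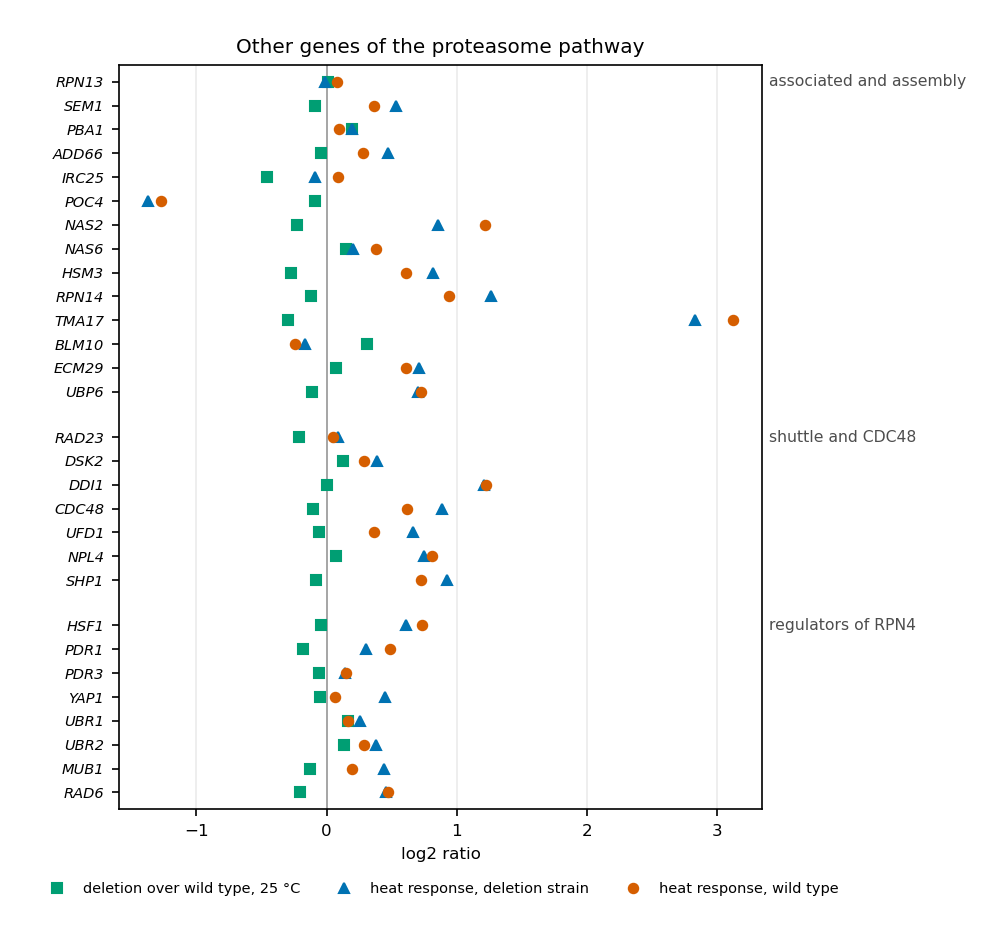
Log2 values of 29 further genes of the pathway: heat response of the wild type (circles), heat response of the deletion strain (triangles) and deletion strain over wild type at 25 °C (squares). TMA17 stands at 3.12 and 2.83 and POC4 at -1.27 and -1.37, and no square is past 0.58 in size.

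At 25 °C none of these 29 genes rose or fell in the deletion strain, where 0.384% of all genes rose and 0.251% fell. Their list medians were -0.09 for the associated and assembly genes, -0.06 for the shuttle and Cdc48 genes and -0.05 for the listed regulators of RPN4, against -0.19 for the 33 members. The lowest gene was IRC25 at -0.45 ± 0.02 and the highest BLM10 at 0.31 ± 0.00. At 37 °C, by the 1.5-fold rule, 3 of the 29 were lower in the deletion strain than in the wild type and none was higher. Over all genes 3.39% were lower and 3.29% higher. The 3 genes were IRC25 at -0.63 ± 0.15, NAS2 at -0.59 and TMA17 at -0.59 ± 0.01. In the same-dye comparison IRC25 was at 0.10 and TMA17 at 0.02, which turned direction, and NAS2 at -0.59. Without background correction none of the 3 passed the rule, and with median centring NAS2 did not.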

How the data were processed

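Spot and background intensities were read from the deposited scanner files, the output of Agilent's Feature Extraction software, version 9.1.1.1, per the file headers. The flags for signal well above background, outliers and saturation come from the same files. The deposited log10 ratios of red over green rest on intensities that this software had background-subtracted and dye-normalised, per the file headers. The value table that the authors deposited is in log2 units; the submitters' processing notes name limma, and the sources used here do not give its centring. Set against the scanner ratios, it correlated at 0.846 for unheated deletion cells, 0.974 for heated deletion cells and 0.980 for the wild type, which gave the direction as sample over reference. Its medians over gene spots were -0.01, -0.05 and -0.03.

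Background was corrected with limma 3.58.1 (R 4.3.3) by normexp with an offset of 50 and ratios were normalised by loess within arrays, with control and flagged spots at weight 0. The offset draws dim ratios towards 0. Spots entered a comparison if at least 1 channel was well above background on every array involved, and spots of a gene were averaged. The 6 comparisons have no test, since each group has 1 array. Same-dye values came from single channels after loess and Aquantile. The number of arrays limits the precision. All members could be named, with RPN4, UMP1 and the highest and lowest of each role in full; of the other lists, genes past the 1.5-fold rule and the extremes, while their remaining genes were named after their values were seen. No promoter motifs were searched. Alternatives were no background correction, no offset, median centring, the scanner's processed signals, other filters on dim spots, the brightest spot, same-dye values and the deposited table. The members and lists were chosen with earlier results of these data known. Symbols come from the R64 gene table, which matched 5756 of 6256 genes; 8 genes outside the members had another name in the files. The calculations were tested on simulated arrays.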

Additional observations from a re-analysis of the deposited data

How the results depend on the processing

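No paired analysis was possible because no group had a replicate. For the 33 members, neither dropping the filter on dim spots nor a strict filter could change a value. All 56 of their spots were well above background in both channels of all 3 arrays. Using the brightest spot left all 198 single values on their side of the threshold. Genes with 1 spot cannot change there, and for the others the brightest spot is part of the average, so it stays within the spread by construction. The brightest spot moved the median over the reference at 37 °C in the deletion strain from 0.34 to 0.37. For that same median normexp without an offset gave 0.39, the scanner's processed signals 0.38, the same-dye comparison 0.41, while 0.31 came from the deposited table, and median centring gave -0.017, with the alpha ring at -0.014, the beta ring at -0.21, the core particle at -0.17, the base at -0.089 and CDC48 at -0.032; 1 member rose under median centring and 9 in the same-dye comparison, against 5. Without an offset the median heat response was 0.48 for the wild type and 0.56 for the deletion strain. The same-dye comparison gave medians of 0.58 for the deletion strain's heat response, -0.12 for the deletion at 25 °C, 0.057 at 37 °C and 0.22 for the difference of responses. It gave 4 risen members in the wild type, where 22.6% of all genes rose. At 37 °C it turned the sign of 17 of 33 members; among genes past the 1.5-fold rule these were SCL1 (0.25), with IRC25 (0.10) and TMA17 (0.016) outside the members, and among role medians larger than their spot SD the core particle (0.072). The smaller medians of the base and lid also turned, to 0.14 and 0.056. The deposited table gave 0.41 and 9 risen members for the deletion strain's heat response, where 23.4% of all genes rose. At 37 °C it gave -0.020 for the shuttle and Cdc48 genes. Median centring gave 0.82 and 30 risen members for the wild type and 0.30 and 4 for deletion cells, where 29% and 15% of all genes rose. At 25 °C it gave -0.37 and 1 fallen member, at 37 °C -0.84 and 31, and for the difference -0.51 and 12. Over all genes 1.6%, 34.5% and 24.9% fell in these comparisons. Under median centring the shuttle and Cdc48 genes were at -0.71 at 37 °C. For the difference it also gave -0.42 for the alpha ring, -0.49 for the base, -0.50 for the lid and -0.53 for the shuttle and Cdc48 genes. The count fallen at 37 °C, 1, was 0 without background correction and in the same-dye comparison, and 2 in the deposited table, without an offset and from the scanner's signals. Over all genes 1.56% fell without background correction and 4.6% in the same-dye comparison. The shares were 6.8% in the deposited table, 7.12% without an offset and 11.2% from the scanner's signals, against 3.39% in the main processing. The scanner's signals moved the median of all genes to 0.12 in the wild-type response. RPN4 passed the 2-fold rule in the heat response of both strains under every alternative run, from 1.33 to 1.85 for the wild type and from 1.30 to 1.54 for deletion cells; over the reference, heated deletion cells had 0.93 under median centring. The causes of these shifts were not tested.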
